A study of Homo sapiens with 12 samples.

Results

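Aminoacyl-tRNA synthetases, the enzymes that join each amino acid to its tRNA, were followed at the transcript level in 786O and WT8 cells with and without depletion of BMAL1. Members were chosen by name: the letter of an amino acid followed by ARS, with a final 2 for an enzyme imported into mitochondria, and the names EPRS, FARSA and FARSB. The rule found 37 of the 38021 gene names in the count table, 20 cytosolic and 17 mitochondrial. The family was selected on a measured value, the lower level of AARS with shBMAL1 in both lines. The changes of AARS with shBMAL1 are therefore described without a test, and AARS is left out of the counts and medians of those changes, which cover 36 members.

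786O is a clear cell renal cell carcinoma (ccRCC) line without functional VHL, the protein that targets HIF2α for degradation, and WT8 is a derivative of it that expresses wildtype VHL. Each line carried an shRNA from a lentiviral pLKO.1 vector, either shControl or shBMAL1, and was kept under puromycin. This gave 4 groups of 3 libraries, 786O shControl, 786O shBMAL1, WT8 shControl and WT8 shBMAL1, all labelled as biological replicates. WT8 is 1 derived line, and the labels do not say which BMAL1 hairpin was used, so an effect of the clone or of the hairpin cannot be told apart from that of VHL or BMAL1.

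Cytosolic synthetases charge the tRNAs used by cytosolic ribosomes, and 8 of the listed ones are held with scaffold proteins in a multisynthetase complex. A separate set of nuclear genes encodes the enzymes that charge mitochondrial tRNAs, while GARS and KARS each encode both forms. Many cytosolic synthetase genes are known targets of ATF4, the transcription factor that is induced when amino acids are scarce or proteins misfold. BMAL1, a circadian clock factor, binds E-box elements with its partners.

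Promoter sequences show which members carry the letters that these factors are known to bind. RefSeq windows of GRCh38.p14, from 250 bases before to 50 after the start site, were found for 30 of the 37 members. TGATGNAA, a core of ATF4 elements, was searched on both strands and occurred in 8 of these 30, against 3.62% of all 35116 windows of this length and 4.46% of the 27305 gene symbols they belong to. Of 13 cytosolic members listed as ATF4-induced 10 had a window and 7 of these held the motif. It occurred in 0 of 6 other cytosolic and 1 of 14 mitochondrial members. The runs are shown with the motif in capitals, on the strand that reads it.
AARS (chr16:70289676-70289703): ctaacttggcTGATGCAActgcgagaaa
CARS (chr11:3057408-3057435): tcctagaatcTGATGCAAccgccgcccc
GARS (chr7:30594835-30594862): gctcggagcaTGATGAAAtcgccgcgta
IARS (chr9:92293693-92293720): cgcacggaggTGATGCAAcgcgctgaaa
MARS (chr12:57488054-57488081): aatccctcgcTGATGCAAccggaaccgg
NARS (chr18:57621805-57621832): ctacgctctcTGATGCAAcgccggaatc
TARS (chr5:33440957-33440984): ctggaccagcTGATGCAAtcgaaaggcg
YARS2 (chr12:32756077-32756104): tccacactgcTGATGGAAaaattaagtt

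The motif lay 187 bases before the start site in AARS, 33 in GARS, 13 in IARS, 4 in MARS and 2 in CARS, and just after it in TARS and NARS. In YARS2 it lay 197 bases before. The E-box CACGTG occurred in 4 of the 30 members, against 7.26% of all windows and 8.77% of symbols, and is shown in capitals because BMAL1 is known to bind it. The shorter ACGTG, which every CACGTG contains, occurred in 9 of the 30, against 21.4% of all windows and 24.9% of symbols.
CARS2 (chr13:110706503-110706528): ctgggatgcaCACGTGcttcgctaac
EARS2 (chr16:23557350-23557375): gggagaagccCACGTGtgctattcca
IARS (chr9:92293868-92293893): gttcgttttcCACGTGgaggcgcaaa
MARS2 (chr2:197705348-197705373): gcgcctctcaCACGTGctgtcagaac

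The labels were checked on their own genes. BMAL1, listed as ARNTL, had 378 to 464 counts in 786O shControl and 128 to 142 in 786O shBMAL1, and 309 to 355 in WT8 shControl against 56 to 72 in WT8 shBMAL1. It was thus 3.08-fold lower in 786O and 5.57-fold lower in WT8. VHL had 602 to 740 counts in the 6 libraries of 786O and 23607 to 37514 in those of WT8. Within WT8 the VHL level was not constant. It was 1.52-fold lower after BMAL1 depletion (log2 -0.60, SE 0.05), without overlap of the groups. This drop in VHL accompanies every change with shBMAL1 in WT8, and its part in them was not tested. The renal markers PAX8 and PAX2 were counted in all 12 libraries, while of the 3 leukocyte genes CD3E had 0 counts in all of them, PTPRC at most 1 and CD68, a lysosomal protein, 647 to 1503. Libraries held 33182005 to 36477484 counts, of which the 37 members took 0.610% to 0.795%. The 3 libraries of WT8 shControl stood apart in 25 cell cycle genes, whose summed level was 1057 to 1125 CPM (read counts relative to the library total, scaled by TMM) against 4845 to 5285 CPM in the other 9 libraries. All comparisons with WT8 shControl share this difference, and its part in them was not tested.

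All 37 members passed the filter on low counts. PARS2, the mitochondrial prolyl enzyme, had the fewest counts, 211 to 361 per library. Per length of the MANE transcript, the median mean level in 786O shControl was 110.2 CPM per kb for the cytosolic members and 14.03 CPM per kb for the mitochondrial ones. GARS, which charges glycine, was highest at 276 ± 10.2 CPM per kb (SD, n = 3), and TARS, the threonyl enzyme, was next at 268 ± 2.35 CPM per kb, a gap within the spread of the replicates. SARS, the seryl enzyme, followed at 203 ± 3.23 CPM per kb. The lowest cytosolic member, FARSB, had 18.5 ± 0.657 CPM per kb, on a transcript of 6761 bases. IARS2 was the highest mitochondrial member at 85.1 ± 0.733 CPM per kb and PARS2 the lowest at 2.86 ± 0.254 CPM per kb. The compartments kept their order in the other groups, with medians of 85.03 against 12.94 CPM per kb in 786O shBMAL1, 94.87 against 13.85 CPM per kb in WT8 shControl and 89.89 against 12.24 CPM per kb in WT8 shBMAL1.

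**Figure D1:**
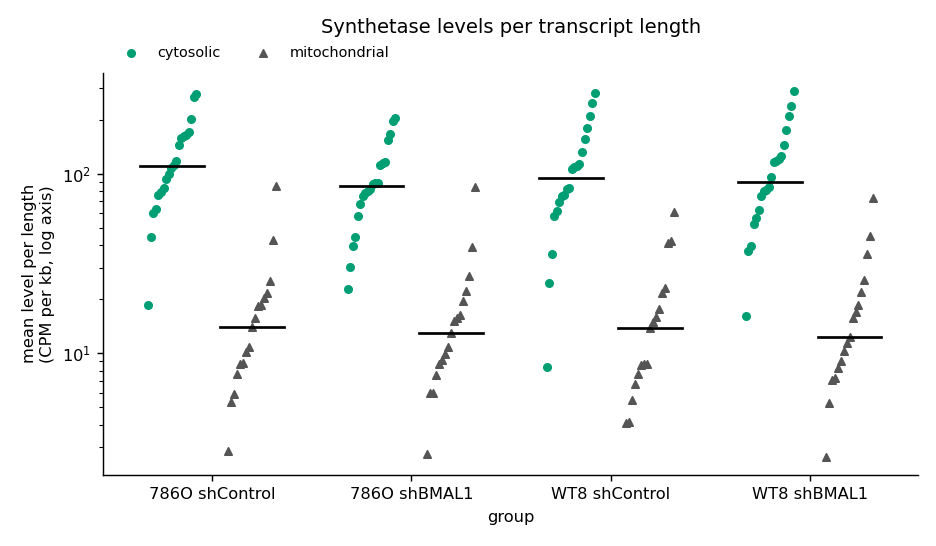
Each point is 1 synthetase gene, plotted by its mean level over 3 libraries in CPM per kb of MANE transcript on a log axis, in each of the 4 groups. Circles are the 20 cytosolic members, triangles the 17 mitochondrial ones and black lines their medians, which lie at 85.03 to 110.2 and at 12.24 to 14.03 CPM per kb.

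AARS, the cytosolic alanyl enzyme (GRCh37 chromosome 16, 70285886 to 70323610, minus strand), is the member whose values led to the choice of the family. It had 551, 538 and 534 CPM in 786O shControl and 306, 297 and 311 CPM in 786O shBMAL1. In WT8 it had 616, 639 and 593 CPM with shControl and 446, 429 and 424 CPM with shBMAL1. In both lines every shBMAL1 library lay below every shControl library. The log2 change was -0.83 (SE 0.04) in 786O and -0.51 (SE 0.04) in WT8, which are 1.78-fold and 1.42-fold lower levels. AARS was 1.14-fold higher in WT8 shControl than in 786O shControl (log2 0.19, SE 0.04). These libraries also entered the choice of the family, so no p-value is given for this difference.

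**Figure D2:**
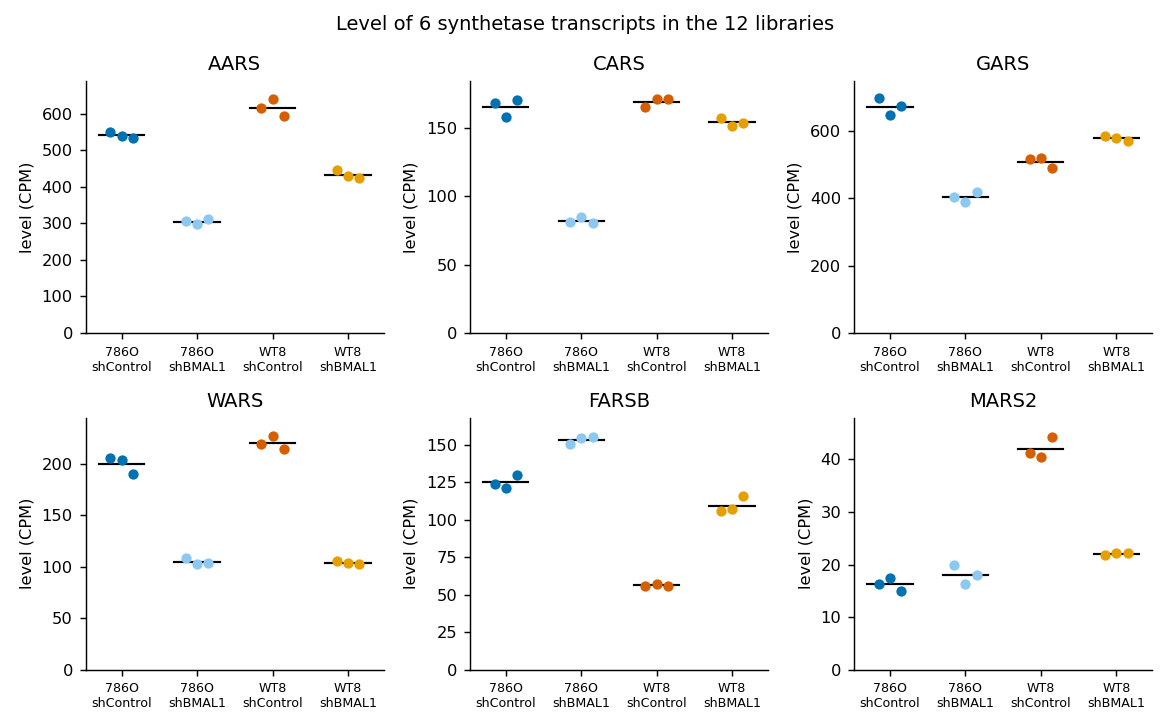
Levels in CPM, on linear axes from 0, of AARS, CARS, GARS, WARS, FARSB and MARS2 in the 12 libraries. Points are libraries, lines are means of the 3 libraries of a group. AARS and WARS lie lower with shBMAL1 in both lines, GARS only in 786O, and FARSB and MARS2 differ most between WT8 shControl and the other groups.

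In 786O, most cytosolic synthetase transcripts fell with shBMAL1, while the mitochondrial ones moved little. Of the 36 members, 24 were called at an adjusted p under 0.1, 19 lower and 5 higher. Over all 16838 genes tested 48.9% were called, 24.4% lower and 24.5% higher. The median SE over all genes was 0.093 on the log2 scale. It was 0.041 (YARS) to 0.049 (DARS) for the cytosolic members and up to 0.115 (PARS2) for the mitochondrial ones. Called shares depend on this precision too, in this and the later comparisons. Of the 19 cytosolic members 14 fell and 3 rose, with a median log2 change of -0.39, and of the 17 mitochondrial members 5 fell and 2 rose, with a median of -0.01. The median over all genes was 0.00. The difference between the compartments was not tested, and bulk RNA cannot tell less RNA in each cell from fewer cells that express a gene.

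CARS, the cysteinyl enzyme (chromosome 11, 3022152 to 3078843, minus strand), had 168, 158 and 171 CPM in 786O shControl and 81.3, 84.8 and 80.5 CPM in 786O shBMAL1. Its 2.02-fold decrease (log2 -1.01, SE 0.05, adjusted p 1.45e-19) was the largest in the family in this line. WARS, the tryptophanyl enzyme, which is also known as an interferon-induced gene, had 206, 204 and 190 CPM with shControl and 108, 103 and 103 CPM with shBMAL1 (log2 -0.93, SE 0.05, adjusted p 1.23e-18). SARS had 383, 386 and 395 CPM with shControl and 227, 224 and 218 CPM with shBMAL1 (log2 -0.80, SE 0.04, adjusted p 1.11e-17). In none of the 3 did the groups overlap, but these were picked as the largest called decreases. The share of all genes without overlap was not computed. GARS fell from 648 to 698 CPM to 391 to 419 CPM (log2 -0.73, SE 0.04, adjusted p 1.31e-16). MARS, the methionyl enzyme, fell by 0.69 on the log2 scale (SE 0.04, adjusted p 8.54e-16).

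These 5 belong to the 13 cytosolic members listed as ATF4-induced. The other 12 of that list besides AARS all fell in 786O, by 0.12 (LARS) to 1.01 (CARS) on the log2 scale, with a median of -0.57. The list was written with results of these data known, so its count is not independent evidence of a direction. VARS and EPRS fell by 0.57 each, YARS by 0.52, NARS by 0.45, TARS by 0.39 and IARS by 0.14. Among them, the 6 with TGATGNAA in the window fell, as did SARS, WARS and EPRS, whose windows did not hold it.

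The 7 other cytosolic members were mixed. FARSB and FARSA encode the subunits of the phenylalanyl enzyme. FARSB had 124, 121 and 130 CPM in 786O shControl and 150, 154 and 155 CPM in 786O shBMAL1 (log2 0.29, SE 0.05, adjusted p 2.52e-06), and FARSA rose by less (log2 0.15, SE 0.05, adjusted p 0.0111). KARS, the lysyl enzyme of both compartments, had 327, 301 and 337 CPM with shControl and 399, 379 and 402 CPM with shBMAL1 (log2 0.29, SE 0.04, adjusted p 9.34e-07). HARS and QARS fell, by 0.25 and 0.16 on the log2 scale. The values of DARS (log2 -0.00, adjusted p 1.0) and RARS (log2 0.05, adjusted p 0.374) did not pass the test.

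Of the 17 mitochondrial members, TARS2 fell most (log2 -0.41, SE 0.06, adjusted p 4.83e-07), from 56.8 to 61.3 CPM to 43.2 to 45.7 CPM. NARS2, VARS2 and CARS2 also fell, by 0.22, 0.23 and 0.12. EARS2, the glutamyl enzyme, rose from 95.9, 98.4 and 96.0 CPM to 115.6, 115.5 and 115.2 CPM (log2 0.25, SE 0.05, adjusted p 2.49e-05), and LARS2 rose by 0.20. The 10 others had log2 changes from -0.14 (SARS2) to 0.16 (MARS2) and were not called. Some calls of small changes in 786O rested on single libraries. Without shControl replicate 3, the changes of FARSA (log2 0.10) and VARS2 (-0.16) were not called, nor was that of LARS (-0.10) without shControl replicate 2. VARS2 was also not called without shBMAL1 replicate 3 (-0.16), and CARS2 was lost on leaving out shControl replicate 2 or 3 or shBMAL1 replicate 1 or 3 (-0.12 to -0.09).

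In WT8, where ARNTL fell by more than in 786O, most synthetase transcripts were slightly higher with shBMAL1. Of the 36 members 30 were called, 21 higher and 9 lower, where 69.8% of all genes were called, 32.9% higher and 36.9% lower. The median log2 change was 0.09 for the 19 cytosolic members (11 higher, 5 lower) and 0.16 for the 17 mitochondrial ones (10 higher, 4 lower), against -0.04 over all genes. The cell cycle genes moved with this comparison: all 25 rose with shBMAL1 in WT8, with a median log2 change of 2.25, against 0.04 in 786O, where 9 rose and 2 fell. Their part in the changes of the synthetases was not tested.

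WARS fell most in WT8, from 219, 227 and 214 CPM to 106, 104 and 103 CPM (log2 -1.08, SE 0.05, adjusted p 1.8e-21). The interferon-induced genes moved in the same direction, with 15 of 19 tested lower and 1 higher in WT8 (median log2 -1.74) and 14 lower and 1 higher in 786O (median -0.77). Their part in the change of WARS was not tested. SARS fell by 0.51 (SE 0.04, adjusted p 3.44e-13), FARSA by 0.16, CARS by 0.13 and HARS by 0.12 on the log2 scale. CARS thus had 165.5, 170.8 and 171.0 CPM in WT8 shControl and 157.5, 151.3 and 153.5 CPM in WT8 shBMAL1, a gap of 1.10-fold.

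FARSB rose most, from 56.1, 57.1 and 55.7 CPM to 105.7, 107.1 and 115.5 CPM (log2 0.96, SE 0.05, adjusted p 4.5e-19). AARS2, the mitochondrial alanyl enzyme, had 18.4, 21.0 and 19.9 CPM with shControl and 35.4, 35.4 and 31.5 CPM with shBMAL1 (log2 0.79, SE 0.08, adjusted p 4.09e-11). LARS2, the mitochondrial leucyl enzyme, had 24.6, 25.4 and 28.4 CPM with shControl and 44.4, 43.6 and 41.3 CPM with shBMAL1 (log2 0.72, SE 0.07, adjusted p 1.24e-11). The groups were apart in all 3 genes, which were picked as the largest called increases. DARS, the aspartyl enzyme of the cytosol, rose by 0.59 on the log2 scale and LARS, the leucyl one, by 0.56. The 7 ATF4-listed members that rose in WT8 were LARS, IARS, GARS, MARS, NARS, VARS and YARS, with log2 changes from 0.08 (YARS) to 0.56 (LARS). EPRS (log2 0.08, adjusted p 0.129) and TARS (0.03, adjusted p 0.515) did not pass the test.

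MARS2, the mitochondrial methionyl enzyme, had 41.1, 40.4 and 44.2 CPM in WT8 shControl and 21.8, 22.2 and 22.3 CPM in WT8 shBMAL1 (log2 -0.93, SE 0.08, adjusted p 5.54e-13). VARS2 had 30.1, 30.1 and 32.8 CPM with shControl and 21.3, 16.6 and 18.6 CPM with shBMAL1 (log2 -0.72, SE 0.09, adjusted p 4.18e-09). PARS2 had 9.81, 10.2 and 8.92 CPM with shControl and 6.27, 5.99 and 6.51 CPM with shBMAL1 (log2 -0.62, SE 0.11, adjusted p 7.69e-06). No shBMAL1 library of the 3 genes reached the lowest shControl library, but these genes were picked for large called changes. CARS2 fell by 0.25. Of the 4 members with CACGTG in the window, MARS2 and CARS2 fell in WT8 while IARS (log2 0.28) and EARS2 (0.18) rose. In 786O, CARS2 and IARS fell, EARS2 rose and MARS2 was not called.

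**Figure D3:**
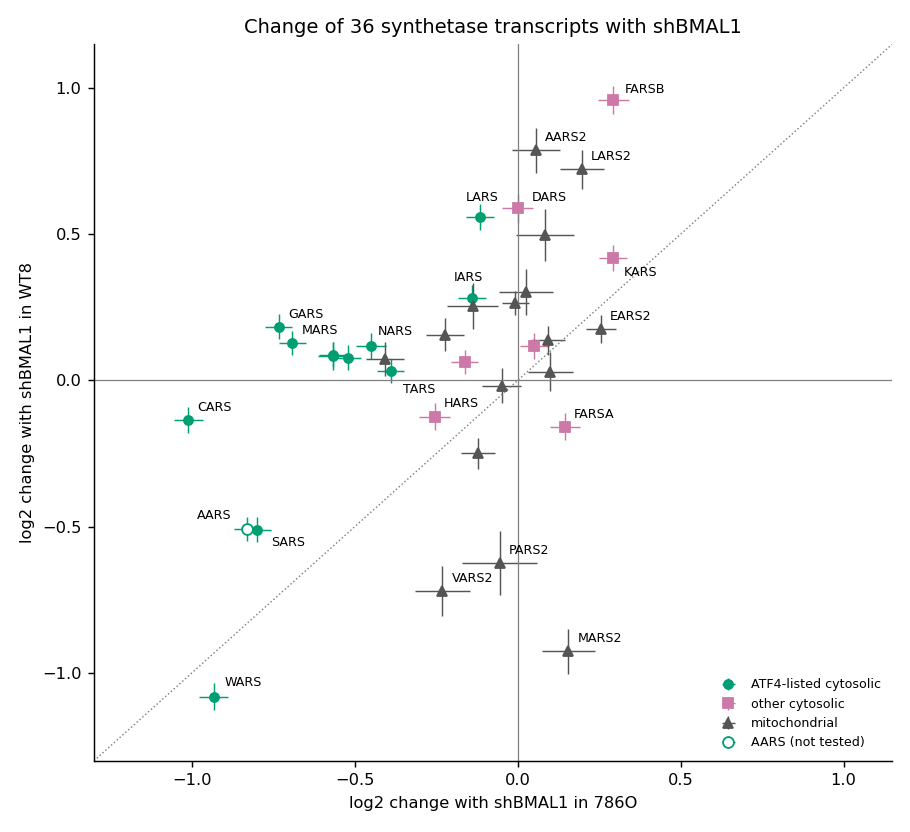
Log2 change with shBMAL1 in 786O (horizontal axis) and in WT8 (vertical axis) for 36 of the members, with bars of 1 SE and a dotted line where both are equal. Green circles are cytosolic members listed as ATF4-induced, pink squares other cytosolic members and grey triangles mitochondrial members. The green points lie left of 0, most of them above the dotted line, and AARS, drawn open, was not tested.

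Several of the small increases in WT8 rested on the scaling or on 1 library. With upper quartile scaling, which shifts the median of all genes in this comparison to -0.12, 14 members were called higher and 9 lower. Over all genes 70.2% were called with it. VARS was not called higher without WT8 shControl replicate 1 or 3 or shBMAL1 replicate 1 or 2 (log2 0.06 to 0.09), nor was YARS (0.06 to 0.08). Without WT8 shControl replicate 3, NARS (0.08) and RARS (0.08) were not called, and HARS was not called lower without shControl replicate 1 (-0.10) or shBMAL1 replicate 2 (-0.10).

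The interaction, the log2 change in WT8 minus that in 786O, tests directly whether the changes with shBMAL1 differed between the lines. The depletion itself differed: ARNTL had an interaction of -0.86 (SE 0.19, adjusted p 0.000369), and its part in those of the members was not tested. VHL also had a negative interaction (-0.65, SE 0.08, adjusted p 3.41e-08), whose part was not tested either. In the members, the interaction was computed in the same way. It was called in 29 of 36 members, 24 positive and 5 negative, where 56.0% of all genes were called, 27.4% positive and 28.5% negative. The median was 0.57 over the 19 cytosolic members (15 positive, 2 negative) and 0.27 over the 17 mitochondrial ones (9 positive, 3 negative), against -0.03 over all genes. Among the positive ones GARS differed most, with 517, 520 and 491 CPM in WT8 shControl and 585, 581 and 570 CPM in WT8 shBMAL1, a rise where it fell in 786O (interaction 0.92, SE 0.06, adjusted p 1.23e-15). CARS followed (0.88, SE 0.06, adjusted p 2.82e-14), since its decrease was 2.02-fold in 786O and 1.10-fold in WT8. MARS, which rose by 0.13 in WT8 and fell by 0.69 in 786O, also differed (interaction 0.82, SE 0.06, adjusted p 3.29e-14).

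In the other direction, MARS2 had an interaction of -1.08 (SE 0.11, adjusted p 3.22e-10), PARS2 of -0.57 (SE 0.16, adjusted p 0.00315) and VARS2 of -0.49 (SE 0.12, adjusted p 0.000874). FARSA (-0.30) and WARS (-0.15, SE 0.06, adjusted p 0.052) were also called, but WARS was not without any 1 of 5 libraries, 786O shControl replicate 3, 786O shBMAL1 replicate 1, WT8 shControl replicate 2 or WT8 shBMAL1 replicate 2 or 3 (-0.13 to -0.11). The positive call of KARS (0.13, adjusted p 0.0867) was lost without any 1 of 6 libraries, among them 786O shControl replicate 3 (0.10). It was also lost with DESeq2, with its size factors, with library totals and with upper quartiles (0.06 to 0.11). The positive call of WARS2 (0.28) was lost without WT8 shBMAL1 replicate 1 (0.22) and with upper quartiles (0.21). WARS was not called without the filter on low counts either (-0.13). SARS fell in both lines, by more in 786O (interaction 0.29, SE 0.06, adjusted p 8.54e-05). For AARS the interaction was 0.32 (SE 0.06) and was not tested.

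The cytosolic members GARS, IARS, LARS, MARS, NARS, VARS and YARS, and the mitochondrial NARS2 were called lower in 786O and higher in WT8. Each had a called interaction, which adds little, since opposite called changes make one likely in advance. The share of all genes called in opposite directions was not computed. With upper quartile scaling the WT8 changes of MARS (log2 0.05), NARS (0.04), VARS (0.01), YARS (0.00) and NARS2 (0.08) were not called, while GARS, IARS and LARS were still called higher. CARS, HARS, SARS, WARS, CARS2 and VARS2 were called lower in both lines, and FARSB, KARS, EARS2 and LARS2 higher in both. HARS and HARS2 are neighbours on chromosome 5 (140052620 to 140071122 and 140071015 to 140078890) on opposite strands. HARS2 was not called in either line (log2 -0.05 in 786O and -0.02 in WT8), while HARS was called lower in both.

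**Figure D4:**
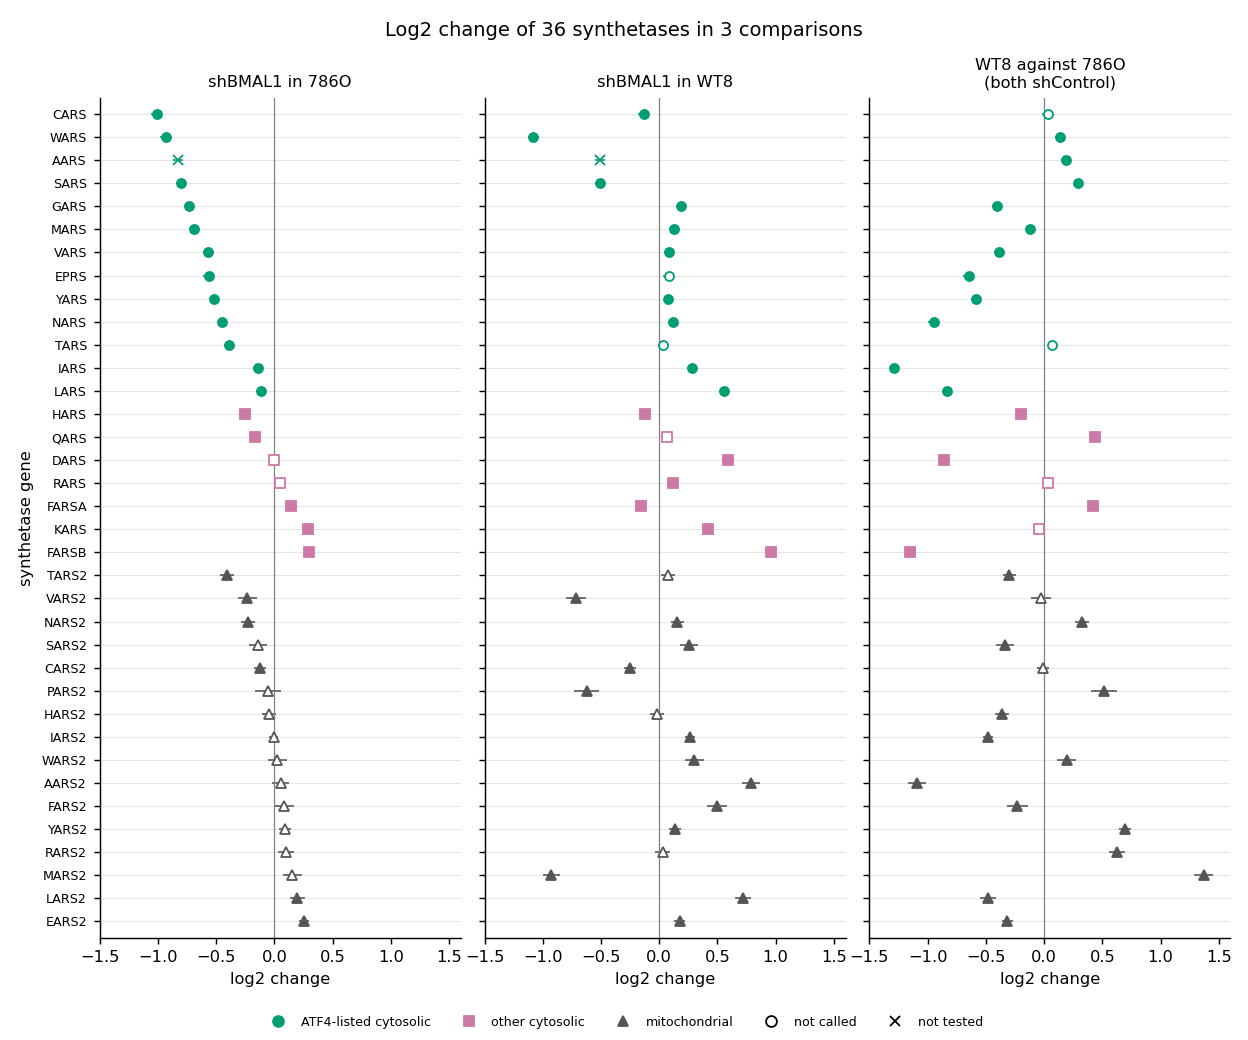
Log2 change with bars of 1 SE for each of 36 members with shBMAL1 in 786O (left), with shBMAL1 in WT8 (middle) and in WT8 against 786O, both with shControl (right). Filled symbols were called at an adjusted p under 0.1 and open ones were not. Crosses mark the changes of AARS with shBMAL1, which were not tested. Circles are the cytosolic members listed as ATF4-induced, squares other cytosolic and triangles mitochondrial members. The circles lie left of 0 in the left panel and on both sides of 0 in the middle panel.

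The shControl libraries of the lines compare cells with and without wildtype VHL. Here 31 of 37 members were called, 20 lower and 11 higher in WT8, close to the 79.5% called over all genes (40.2% lower, 39.3% higher). AARS is counted among the 11 higher ones, although its shControl libraries also entered the choice of the family. The medians were -0.16 for the cytosolic and -0.23 for the mitochondrial members, but the latter was -0.12 without 786O shControl replicate 1. Scaling by library totals moved the median of all genes to 0.12, and with it 17 members were called lower and 15 higher. With this scaling 80.2% of all genes were called. Relative to all genes, the medians stayed at -0.16 and -0.23. All 25 cell cycle genes were lower in WT8 shControl, with a median log2 difference of -2.26, and their part in the differences of the synthetases was not tested.

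IARS, the isoleucyl enzyme (chromosome 9, 94972489 to 95056136, minus strand), had 757, 743 and 782 CPM in 786O shControl and 313, 325 and 296 CPM in WT8 shControl, a 2.44-fold lower level (log2 -1.29, SE 0.04, adjusted p 1.27e-24). FARSB was 2.22-fold lower (log2 -1.15, SE 0.05, adjusted p 8.93e-22) and AARS2, with 46.7, 39.3 and 40.0 CPM in 786O shControl, 2.13-fold lower (log2 -1.09, SE 0.08, adjusted p 4.14e-15). NARS (log2 -0.95), DARS (-0.86) and LARS (-0.83) were lower as well. In contrast, MARS2 was 2.58-fold higher in WT8 (log2 1.37, SE 0.08, adjusted p 1.23e-17), with 16.3, 17.4 and 14.9 CPM in 786O shControl. YARS2 had 54.9, 52.5 and 52.9 CPM in 786O shControl and 84.8, 85.8 and 89.6 CPM in WT8 shControl (log2 0.70, SE 0.05, adjusted p 1.41e-14). RARS2 had 30.6, 31.4 and 32.4 CPM in 786O shControl and 49.7, 49.0 and 46.6 CPM in WT8 shControl (log2 0.62, SE 0.07, adjusted p 2.82e-10). FARSA was 1.34-fold higher while FARSB, its partner subunit, was lower. The small differences of FARS2 (-0.23) and WARS2 (0.19) were not called without 786O shControl replicate 1 (FARS2, -0.12), or without 786O shControl replicate 2 (WARS2, 0.16) or WT8 shControl replicate 3 (WARS2, 0.14).

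The comparisons with shBMAL1 in WT8 and of the lines use the same WT8 shControl libraries, so they are not independent of each other. For FARSB, the level in WT8 shControl (55.7 to 57.1 CPM) was the lowest of the 4 groups and the other groups had 106 to 155 CPM. For MARS2, WT8 shControl (40.4 to 44.2 CPM) was the highest and the other groups had 14.9 to 22.3 CPM. IARS differed from this pattern, with 372 to 383 CPM in WT8 shBMAL1 against 657 to 782 CPM in the 6 libraries of 786O.

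The 8 enzymes of the multisynthetase complex, EPRS, IARS, LARS, MARS, QARS, RARS, KARS and DARS, had a median log2 change of -0.13 in 786O, where 5 fell and 1 rose, and of 0.21 in WT8, where 6 rose and 0 fell. Of its 3 scaffolds, EEF1E1 rose in 786O (log2 0.43), AIMP2 fell (-0.17) and AIMP1 was not called (0.03), and all 3 rose in WT8, by 0.26 to 0.66. The 11 tested cytosolic members outside the complex had a median of -0.52 in 786O (9 lower, 2 higher) and of 0.03 in WT8 (5 higher, 5 lower). By catalytic class, 11 of 19 class I members fell and 2 rose in 786O, and 8 of 17 class II members fell and 3 rose. Over all genes 24.4% fell and 24.5% rose in 786O, and 36.9% fell and 32.9% rose in WT8.

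ATF4 itself had 349 to 375 CPM in 786O shControl and 248 to 269 CPM in 786O shBMAL1 (log2 -0.49, SE 0.04, adjusted p 8.7e-12), and 453 to 465 against 362 to 385 CPM in WT8 (log2 -0.30, SE 0.04, adjusted p 1.72e-07). Of 23 other ATF4 target genes tested, 19 fell and 3 rose in 786O (median log2 -0.66), and 14 fell and 5 rose in WT8 (median -0.24). The shares over all genes were 24.4% lower and 24.5% higher in 786O, and 36.9% lower and 32.9% higher in WT8. This list, too, was written from memory with results of these data known. The largest changes in 786O were those of CTH, a cysteine-forming enzyme (log2 -2.21), PSPH, an enzyme of serine synthesis (-1.20), and SLC7A5, an amino acid transporter (-1.06). In WT8 they were those of TRIB3 (-1.40), DDIT4 (-1.34) and CEBPB (-1.14). ASNS, the asparagine synthetase, fell in both lines (log2 -0.63 and -0.52), without a called interaction (0.12, adjusted p 0.137). In WT8 the other ATF4 targets thus had a negative median, whereas the 12 ATF4-listed synthetases had a median of 0.09 and 7 of them rose. The difference between these lists was not tested.

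**Figure D5:**
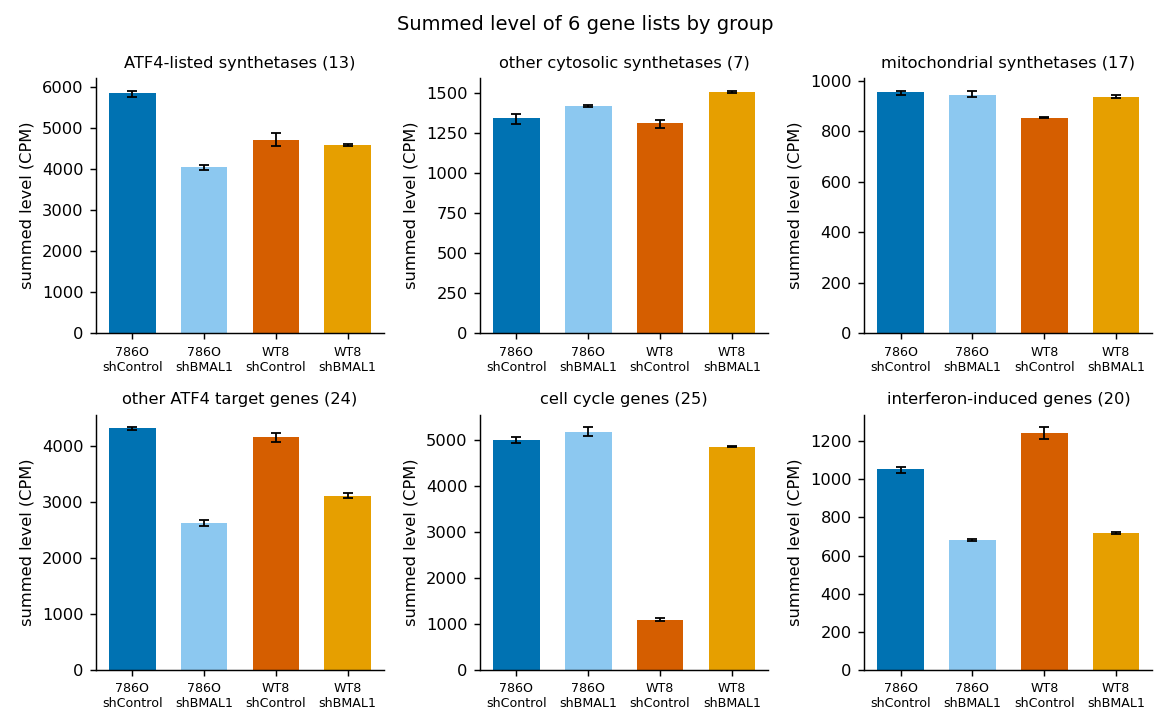
Summed level in CPM of 6 gene lists in the 4 groups, with the number of genes in brackets. Bars are means of 3 libraries and whiskers run from the lowest to the highest library. ATF4-listed synthetases, AARS included, are lowest in 786O shBMAL1, and cell cycle genes are lowest in WT8 shControl, at 1057 to 1125 CPM.

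Summed over the 13 ATF4-listed synthetases, AARS included, the level was 5751 to 5911 CPM in 786O shControl and 3984 to 4094 CPM in 786O shBMAL1, against 4564 to 4884 and 4551 to 4602 CPM in WT8. AARS alone had means of 541.1 and 304.6 CPM in 786O, and of 615.9 and 432.8 CPM in WT8. Its fall led to the choice of the family, so this sum is not independent of that choice. The 7 other cytosolic members summed to 1307 to 1369 CPM and 1409 to 1424 CPM in 786O, and the 17 mitochondrial members to 945.5 to 961.2 CPM and 934.5 to 957.8 CPM. Among the cytosolic elongation and release factors, which act downstream of the synthetases, 4 of 8 fell and 1 rose in 786O (median log2 -0.07) and 5 fell in WT8 (median -0.09). The 9 mitochondrial translation factors had log2 changes from -0.03 to 0.15 in 786O, where edgeR called 0 of them and 0 had an unadjusted p under 0.05, and 3 rose and 3 fell in WT8. Of 13 tested genes that act beside the synthetases on tRNA charging, 6 fell and 6 rose in 786O, and 3 fell and 4 rose in WT8. The shares called over all genes were 48.9% in 786O and 69.8% in WT8, and in WT8 the called shares of these 3 lists lie below that.

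Some members share sequence with other genes, and the use of strand in the counting is not stated. On the same strand, EARS2 overlaps exons of GGA2 over 203 bases, HARS those of DND1 over 176 bases and HARS2 those of ZMAT2 over 152 bases. SARS2 (1492 bases) and VARS2 (4073 bases) overlap gene models listed without a symbol on their strand, and reads of these cannot be told apart from their own. On the opposite strand, HARS overlaps exons of WDR55 and HARS2 over 1198 bases, and HARS2 overlaps those of HARS over 108 bases. If strand was not used in the counting, reads there could not be told apart, which limits the contrast of HARS with HARS2. MARS overlaps ARHGAP9 and DDIT3 over 874 bases on the opposite strand. DDIT3, an ATF4 target, had 6.81 to 22.6 CPM, against 244 to 421 CPM for MARS. DARS had values that were not whole numbers in all 12 libraries.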

How the data were processed

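RNA-seq was made from 12 libraries of 786O and WT8 cells, 3 per group. Groups and replicate numbers were taken from the sample titles. The authors deposited 1 table of estimated counts per gene, in which 0.028 stands for 0 (46.95% of values) and 5.666% of the other values are not whole numbers. The analysis had been planned for whole counts, so values were rounded to whole numbers. Rows with the same name (45 names, 0 of them members) were summed. The study's methods give SeqMan NGen and ArrayStar on GRCh37, whereas the submitters' processing notes list STAR, DESeq2 and hg38, so the tool behind the table is uncertain.

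Of 26925 genes with a count, 16838 passed filterByExpr and were tested with edgeR 4.0.16 (R 4.3.3) by the robust quasi-likelihood F test with TMM scaling, 1 mean per group over all 12 libraries and Benjamini-Hochberg adjustment over all genes tested. Genes were called at an adjusted p under 0.1, the threshold of the study. The fit was tested on simulated data. The common biological coefficient of variation was 5.70%, and r between replicates was 0.991 to 0.992. CPM were scaled by TMM. Positions and lengths came from GENCODE for GRCh37, and promoters from RefSeq for GRCh38.p14.

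Members and lists were chosen with earlier results of these data known. The lists were written from memory. The values of 1 member are not reported here, although it is part of the counts, medians and sums. Values in every library are given for AARS and, in each comparison, for up to 3 members with the largest change in each direction among called members whose counts averaged 50 or more. Alternatives were DESeq2 1.42.0, its size factors, no filter, a replicate block, fewer groups, each library left out and a fold over 1.5. Scaling by library totals or by upper quartiles and the inclusion of AARS were added after seeing the data.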

Additional observations from a re-analysis of the deposited data

Results flagged for a closer look

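The change with shBMAL1 differed between the lines, by the test of the difference itself (edgeR interaction, adjusted p under 0.1), in the following members, which were among those with the largest interactions or were called in opposite directions in the 2 lines. Values are the log2 change in WT8 minus that in 786O. Among the cytosolic members they were 0.92 for GARS, 0.88 for CARS, 0.82 for MARS, 0.67 for LARS, 0.65 for VARS, 0.60 for YARS, 0.57 for NARS, 0.42 for IARS and -0.30 for FARSA. Among the mitochondrial members they were 0.38 for NARS2, -0.49 for VARS2, -0.57 for PARS2 and -1.08 for MARS2. CARS and VARS2 were called lower in both lines and differed in size. For members picked by opposite calls, a called interaction was likely in advance and adds little to the 2 calls. All of them use the WT8 shControl libraries, in which the 25 cell cycle genes summed to 1057 to 1125 CPM against 4845 to 4882 CPM in WT8 shBMAL1, and the part of this difference was not tested.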

How the results depend on the processing

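Of 145 results for single members, 115 kept their call, and the direction of it, under every alternative run other than the fold threshold. The other 30 changed a call in at least 1. A change of sign in a result that was not called either way was not counted. Requiring a fold change over 1.5 left 5 members called in 786O, 8 in WT8, 12 between the lines and 12 for the interaction. The share of all genes called over this fold was not computed, so these counts have no reference. With library totals or upper quartiles, the difference of CARS2 between the lines turned from -0.01 to 0.11 on the log2 scale. The medians between the lines became -0.039 (cytosolic) and -0.11 (mitochondrial) with library totals, and -0.044 and -0.12 with upper quartiles. Upper quartiles gave medians of 0.012 and 0.081 in WT8 and of 0.51 and 0.21 for the interaction. These scalings shift the median of all genes too. With AARS included, the cytosolic median was -0.42 in 786O and 0.49 for the interaction. Leaving out each library in turn gave 21 to 25 members called in 786O, 26 to 31 in WT8, 30 to 31 between the lines and 27 to 30 for the interaction. The cytosolic medians then ranged from -0.40 to -0.39 in 786O, 0.07 to 0.12 in WT8, -0.18 to -0.13 between the lines and 0.53 to 0.60 for the interaction. The mitochondrial medians ranged from -0.033 to 0.011, 0.15 to 0.18, -0.31 (without 786O shControl replicate 2) to -0.12 (without 786O shControl replicate 1) and 0.22 to 0.29. Deviations of samples with the same replicate number correlated by -0.046 to 0.048, so the numbers give no pairing. The replicate block called 24, 29, 31 and 29 members, YARS in WT8 being the one lost. Without the filter, 29.7%, 44.9%, 53.9% and 34.7% of all genes were called, out of 26925 genes in place of 16838. The numbers called were 8003, 12095, 14504 and 9344, against 8237, 11753, 13378 and 9427 with the filter. The cause of the other shifts given here was not tested. PARS2, with 211 to 361 counts per library, had the largest SE in all 4 comparisons, 0.11 in WT8. The levels in CPM on DESeq2 size factors were not run.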
